A study of Mus musculus with 12 samples.

Results

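A set of 9 genes that mark naive or quiescent T cells was followed in CD4+ T cells of mice with experimental periodontitis. The genes were chosen by name, with earlier results of these data known: the receptors for homing, egress and survival (Ccr7, S1pr1 and Il7r), a pair of high-mobility-group transcription factors (Tcf7 and Lef1), a pair of forkhead factors (Foxo1 and Foxp1) and the regulators Bach2 and Satb1. All 9 were found among the 55414 gene records of the counts, and all 9 had enough counts to be tested in every comparison. The cells were CD4+ T cells purified from the spleen by negative selection, from male wild-type BALB/c mice aged 18 weeks. In the LIP group (ligature-induced periodontitis), a silk ligature was tied around the maxillary second molars, and the CTL group was anesthetized without a ligature. Cells of day 0 were collected straight after purification and were not cultured. Cells of day 2 had been cultured for 2 days with IL-2 at 10 ng/ml, anti-TCRβ antibody at 1 µg/ml and anti-CD28 antibody at 1 µg/ml, doses taken from the sample labels. The paper's methods give other doses for IL-2 and anti-TCRβ, and the treatment labels name anti-CD29 or anti-CD30 for 4 of the day 2 libraries. Each of the 4 groups had 3 libraries, numbered 88, 89 and 94 (CTL, day 0), 92, 93 and 94 (LIP, day 0), 92, 93 and 97 (CTL, day 2) and 90, 96 and 97 (LIP, day 2).

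A naive T cell recirculates through lymphoid organs in a quiescent, long-lived state. CCR7 guides it into lymph nodes, S1PR1 guides it out again towards the blood, and the interleukin-7 receptor keeps it alive between encounters with antigen. The transcription factors of this state hold effector programmes in check, and signals from the T cell receptor are known to switch off much of it, in part by sending FOXO1 out of the nucleus.

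The libraries held between 6249094 and 7845715 counts on day 0 and between 8691745 and 12866751 on day 2. Levels are given below as CPM (counts relative to the library total, scaled by edgeR's TMM factors over all 12 libraries), so that a limit of 3 counts equals between 0.268 and 0.451 CPM, counting error only. Markers of CD4+ T cells (Cd3d, Cd3e, Cd3g, Cd4, Cd5 and Lat) summed to between 1790 and 3090 CPM, and Cd8a stayed at or under 2.24 CPM. Markers of B cells (8 genes) summed to between 1.80 and 7.87 CPM on day 0. On day 2 they summed to 59.3 CPM in CTL 97, 65.0 in LIP 96 and 62.5 in LIP 97, against 6.43 in CTL 92, 7.15 in CTL 93 and 3.58 in LIP 90. The other marker lists summed to at most 13.5 CPM (myeloid cells), 21.7 CPM (cytotoxic and NK cells), 3.01 CPM (erythroid cells) and 12.8 CPM (pancreatic acinar cells) in any library. Removing CTL 94 on day 0 or LIP 90 on day 2 changed the number of genes called between LIP and CTL more than any other library did, and values without them are given below where they changed a call or moved an estimate. Nothing in the labels says that the libraries of a group came from separate mice, so the p-values measure the spread between these libraries.

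To show the sequence next to the values, the 250 bases before the start of the canonical transcript are printed for 3 genes that were lower on day 2 and for one that was higher. They were read from GRCm39 with GENCODE release M39 starts, and run 5′ to 3′ on the strand of the gene. S1pr1 lies at chr3:115508722-115508971, Il7r at chr15:9529922-9530171 and Tcf7 at chr11:52174620-52174869, all on the minus strand, and Bach2 at chr4:32238464-32238713 on the plus strand. Capitals mark a match, on either strand, to one of 5 words: GTAAACA (FOXO), CTTTGA (TCF/LEF), CCGGAAG (ETS), TGTGGT (RUNX) and GGGCGG (SP/KLF).
S1pr1: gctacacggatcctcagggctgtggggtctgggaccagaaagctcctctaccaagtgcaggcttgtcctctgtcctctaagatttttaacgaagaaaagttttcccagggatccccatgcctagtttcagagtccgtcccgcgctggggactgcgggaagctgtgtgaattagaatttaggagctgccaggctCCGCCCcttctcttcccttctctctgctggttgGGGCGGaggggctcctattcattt
Il7r: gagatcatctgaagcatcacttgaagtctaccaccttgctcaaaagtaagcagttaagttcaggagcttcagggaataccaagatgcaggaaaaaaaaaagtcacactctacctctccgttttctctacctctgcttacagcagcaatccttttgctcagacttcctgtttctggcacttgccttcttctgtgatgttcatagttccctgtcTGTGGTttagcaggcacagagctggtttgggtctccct
Tcf7: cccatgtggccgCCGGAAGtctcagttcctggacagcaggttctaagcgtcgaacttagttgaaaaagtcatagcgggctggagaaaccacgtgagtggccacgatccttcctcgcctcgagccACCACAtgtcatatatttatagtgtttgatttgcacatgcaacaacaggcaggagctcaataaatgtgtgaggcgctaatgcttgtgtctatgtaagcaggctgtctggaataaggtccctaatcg
Bach2: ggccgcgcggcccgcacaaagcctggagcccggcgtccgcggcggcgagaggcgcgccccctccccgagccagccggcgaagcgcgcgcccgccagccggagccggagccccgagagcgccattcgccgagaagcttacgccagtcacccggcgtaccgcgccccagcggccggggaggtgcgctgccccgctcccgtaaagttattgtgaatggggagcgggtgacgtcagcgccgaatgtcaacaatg
The capitals are 2 SP/KLF words in S1pr1, a RUNX word in Il7r, and an ETS word followed by a RUNX word in Tcf7, while the Bach2 window held none. Over all 9 genes, the RUNX word was in 3 windows (Ccr7, Il7r and Tcf7) and in 13.0% of 21757 windows of protein-coding genes. The SP/KLF word was also in 3 (S1pr1, Foxo1 and Foxp1), against 36.3% of all windows, and the ETS word in 1, against 6.89%. The FOXO word was in 0 of the 9 windows (2.72% of all) and the TCF/LEF word in 0 (14.1% of all). G and C made up 74.0% of the Bach2 window and 74.8% of that of Foxp1, but 45.6% of that of Il7r, with a median of 53.2% over all windows. A match is only a match of letters in one short window.

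After 2 days of stimulation, 4 of the 9 genes were lower and 2 were higher in both groups of mice, and the other 3 passed the test in neither. S1pr1 fell most, then Il7r, Tcf7 and Lef1, whereas Bach2 and Satb1 rose. Ccr7, Foxo1 and Foxp1 did not pass the threshold (adjusted p under 0.05 in edgeR's quasi-likelihood test over 15475 genes). The stimulation changed most genes: 69% of all genes tested were called in the CTL group (35.3% higher, 33.7% lower) and 71.8% in the LIP group (36.6% higher, 35.2% lower), so 6 of 9 is close to the background. The median log2 fold change of the 9 genes was -0.30 in CTL and -0.15 in LIP, beside -0.022 and -0.003 over all genes. For the same 6 genes the libraries of the days did not overlap, which held for 73.3% of all genes in CTL and 74.8% in LIP. The 6 calls of each group held under every alternative run. As these are bulk samples, fewer cells of a type and less RNA per cell cannot be told apart.

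**Figure D1:**
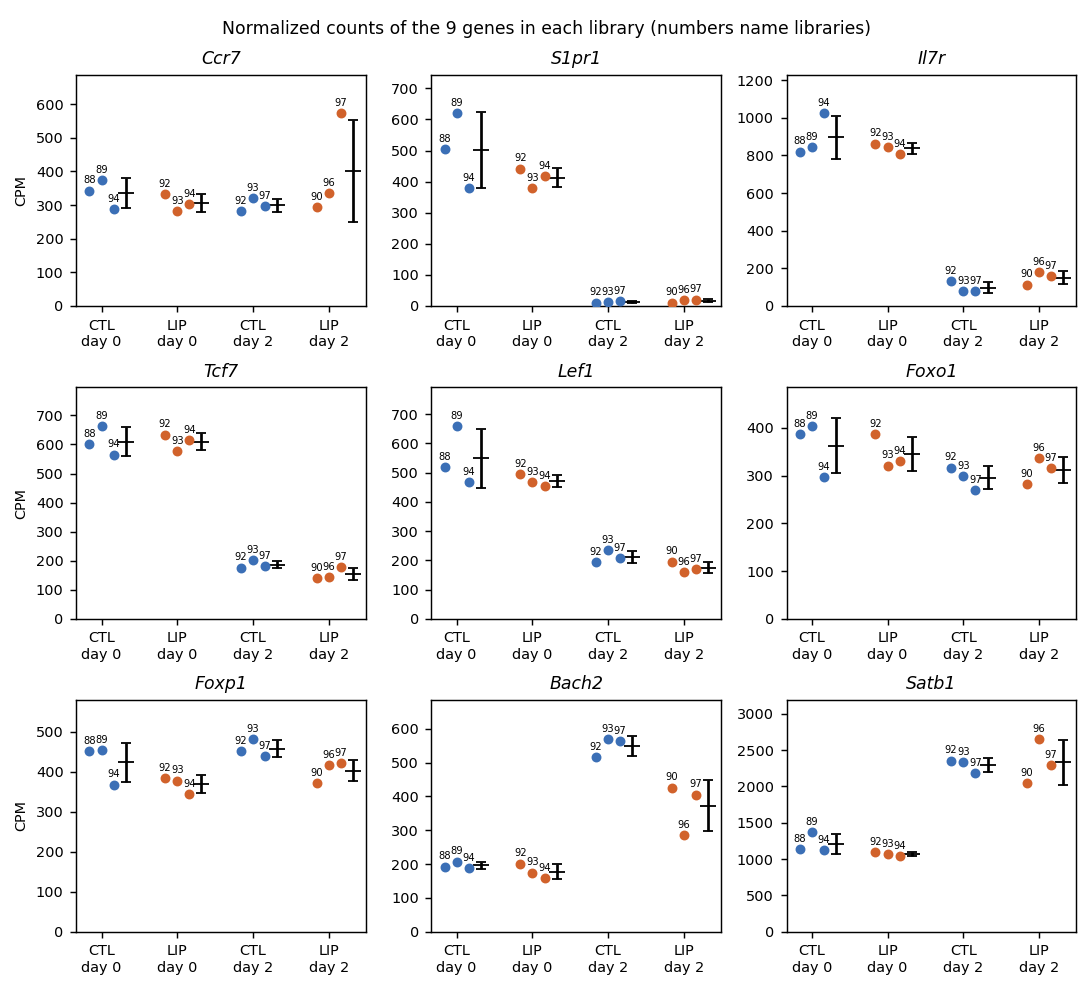
CPM of each of the 9 genes (y axes, linear, from 0) in the 12 libraries (points, numbered), grouped by CTL (blue) or LIP (orange) and day, with the mean and SD of 3 libraries in black. S1pr1, Il7r, Tcf7 and Lef1 are lower in every day 2 library than in every day 0 library, Bach2 and Satb1 are higher, and LIP 97 stands above the other libraries of day 2 for Ccr7 (573.6 CPM).

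S1pr1 (ENSMUSG00000045092, chr3:115504071-115508721, minus strand) encodes the sphingosine-1-phosphate receptor that T cells need to leave lymphoid tissue. On day 0 it was counted at 505.4, 620.3 and 378.3 CPM in CTL 88, 89 and 94, and at 442.1, 379.4 and 416.6 CPM in LIP 92, 93 and 94. On day 2 it was at 10.87, 13.47 and 16.33 CPM in CTL 92, 93 and 97, and at 10.64, 17.67 and 20.44 CPM in LIP 90, 96 and 97. The days do not come near each other: the highest value of day 2 is far under the lowest of day 0. This amounted to a 37.0-fold fall in CTL (log2 fold change -5.21 ± 0.25 SE, adjusted p = 1.62e-09) and a 25.6-fold fall in LIP (-4.68 ± 0.24, adjusted p = 2.61e-09). Of all genes tested, 0.407% had a lower log2 fold change in CTL and 0.556% in LIP.

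Il7r (ENSMUSG00000003882, chr15:9505874-9530262, minus strand), the alpha chain of the interleukin-7 receptor, was the next to fall. Its day 0 levels were 819.9, 843.1 and 1025 CPM in CTL 88, 89 and 94, and 862.8, 843.7 and 805.2 CPM in LIP 92, 93 and 94. By day 2 they were 130, 79.99 and 80.73 CPM in CTL 92, 93 and 97, and 113.3, 181.2 and 156.9 CPM in LIP 90, 96 and 97. The day 2 libraries of LIP thus spanned a range that began inside that of CTL and ended above it. The fall was 9.24-fold in CTL (log2 fold change -3.21 ± 0.21 SE, adjusted p = 1.83e-08) and 5.57-fold in LIP (-2.48 ± 0.20, adjusted p = 1.28e-07).

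Ccr7 (ENSMUSG00000037944, chr11:99035022-99045911, minus strand), the receptor for the chemokines CCL19 and CCL21, did not follow the other receptors. It was counted at 343.2, 374.9 and 287.9 CPM in CTL and at 333.1, 281.0 and 304.0 CPM in LIP on day 0. On day 2 the levels were 281.7, 320.4 and 298.1 CPM in CTL and 293.1, 336.2 and 573.6 CPM in LIP, the last of these in LIP 97. Apart from that library, the 4 groups overlapped. The log2 fold change was -0.16 in CTL (95% interval -0.58 to 0.26, adjusted p = 0.477) and 0.39 in LIP (-0.03 to 0.81, adjusted p = 0.0904). In LIP the call depended on single libraries: without LIP 90 it was 0.58 (adjusted p = 0.0084) and without LIP 96 it was 0.51 (adjusted p = 0.0439), but without LIP 97 it was 0.05 (adjusted p = 0.751). With no filter on low counts it was also called higher in LIP (adjusted p = 0.00494). With upper-quartile scaling and with library totals alone the value in LIP was 0.07 (adjusted p = 0.747) and 0.03 (adjusted p = 0.89), and in CTL it was -0.45 (adjusted p = 0.0607) and -0.35 (adjusted p = 0.129), under scalings that also lowered the median of all genes (values under Foxp1).

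Tcf7 (ENSMUSG00000000782, chr11:52143107-52174619, minus strand) encodes TCF1, which maintains naive and memory T cells. It stood at 601.0, 663.7 and 564.8 CPM in CTL and at 634.2, 577.9 and 616.1 CPM in LIP on day 0. After stimulation it was at 176.0, 201.7 and 182.7 CPM in CTL and at 141.1, 142.4 and 177.5 CPM in LIP. Every day 2 library lay under every day 0 library, a 3.27-fold fall in CTL (log2 fold change -1.71 ± 0.11 SE, adjusted p = 2.07e-08) and a 3.97-fold fall in LIP (-1.99 ± 0.11, adjusted p = 5.28e-09).

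Lef1 (ENSMUSG00000027985, chr3:130903919-131018005, plus strand), the partner of TCF1 in the same family, moved in the same direction. Its day 0 levels were 518.2, 659.5 and 467.4 CPM in CTL and 495.3, 467.7 and 453.2 CPM in LIP, and its day 2 levels were 194.1, 235.2 and 207.3 CPM in CTL and 195.4, 158.4 and 170.9 CPM in LIP. The days were apart here as well, by 2.59-fold in CTL (log2 fold change -1.37 ± 0.13 SE, adjusted p = 7.31e-07) and 2.70-fold in LIP (-1.43 ± 0.13, adjusted p = 4.29e-07).

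Foxo1 (ENSMUSG00000044167, chr3:52175757-52260642, plus strand), known to drive transcription of Il7r, S1pr1, Ccr7 and Klf2 in resting T cells, did not pass the test for its own RNA. It was counted at 386.5, 404.2 and 297.2 CPM in CTL and 386.6, 320.9 and 330.6 CPM in LIP on day 0, and at 317.1, 299.9 and 269.7 CPM in CTL and 281.7, 336.6 and 316.2 CPM in LIP on day 2. The days overlapped in both groups. Its log2 fold change was -0.30 in CTL (95% interval -0.57 to -0.02, adjusted p = 0.0512) and -0.15 in LIP (-0.42 to 0.12, adjusted p = 0.288). In CTL it was called lower by DESeq2 (adjusted p = 0.0385), with RLE scaling (0.0439), with at least 10 counts in every library (0.0214) and in a fit of only the 6 CTL libraries (0.0368). It was also called without LIP 90 (adjusted p = 0.0345) and without CTL 94 (adjusted p = 0.0119), whose 297.2 CPM was the lowest value of its group. Upper-quartile scaling and library totals alone gave -0.58 and -0.48 in CTL and -0.47 and -0.51 in LIP, all called lower, and both scalings moved the median of all genes downwards as well (values under Foxp1).

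Foxp1 (ENSMUSG00000030067, chr6:98902299-99499685, minus strand), a forkhead repressor that keeps naive T cells quiescent, was at 451.3, 453.6 and 367.9 CPM in CTL and 384.7, 377.7 and 343.2 CPM in LIP on day 0. On day 2 it was at 451.8, 482.3 and 439.5 CPM in CTL and 372.0, 416.1 and 421.2 CPM in LIP. The days overlapped, with log2 fold changes of 0.11 in CTL (95% interval -0.11 to 0.33) and 0.13 in LIP (-0.09 to 0.35), and the direction was set by the scaling. With upper-quartile scaling and with library totals alone it was -0.18 and -0.08 in CTL, and -0.19 and -0.23 in LIP. Those scalings moved the median of all genes to -0.307 and -0.210 in CTL and to -0.320 and -0.362 in LIP. Relative to that median, Foxp1 stayed on the higher side.

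Bach2 (ENSMUSG00000040270, chr4:32238714-32586108, plus strand), a repressor that restrains effector differentiation, rose with stimulation. It was at 192.6, 207.1 and 188.5 CPM in CTL and 201.5, 174.6 and 157.3 CPM in LIP on day 0. On day 2 it was at 515.2, 570.4 and 563.9 CPM in CTL 92, 93 and 97, and at 426.1, 286.2 and 405.7 CPM in LIP 90, 96 and 97. All 6 stimulated libraries lay above all 6 unstimulated ones, and the LIP libraries lay between the unstimulated ones and the stimulated CTL libraries. The rise was 2.80-fold in CTL (log2 fold change 1.49 ± 0.14 SE, adjusted p = 6.42e-07) and 2.09-fold in LIP (1.07 ± 0.14, adjusted p = 1.25e-05).

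Satb1 (ENSMUSG00000023927, chr17:52043114-52140622, minus strand), a chromatin organizer of T cells, also rose. It went from 1134, 1371 and 1122 CPM in CTL and 1096, 1065 and 1041 CPM in LIP to 2355, 2338 and 2189 CPM in CTL and 2041, 2656 and 2294 CPM in LIP. Each stimulated library was above each unstimulated one, a 1.90-fold rise in CTL (log2 fold change 0.92 ± 0.12 SE, adjusted p = 8.91e-06) and a 2.18-fold rise in LIP (1.13 ± 0.12, adjusted p = 1.26e-06). On the same strand, 5 further gene records lie inside Satb1 and together held counts equal to 42.9% to 67% of its own over the 12 libraries, so its count is uncertain. One such record took up to 20.9% of the count of Foxp1, another up to 17.4% of that of Foxo1 and another up to 9.39% of that of Lef1. With these records summed into the gene, an alternative added after the data were seen, 1 call changed: Foxo1 in CTL was then lower (adjusted p = 0.034). Genes on the opposite strand held at most 3.20% of the count of any of the 9, and reads of the 2 strands cannot be told apart here because the strand setting of the counting is not given in the sources used.

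**Figure D2:**
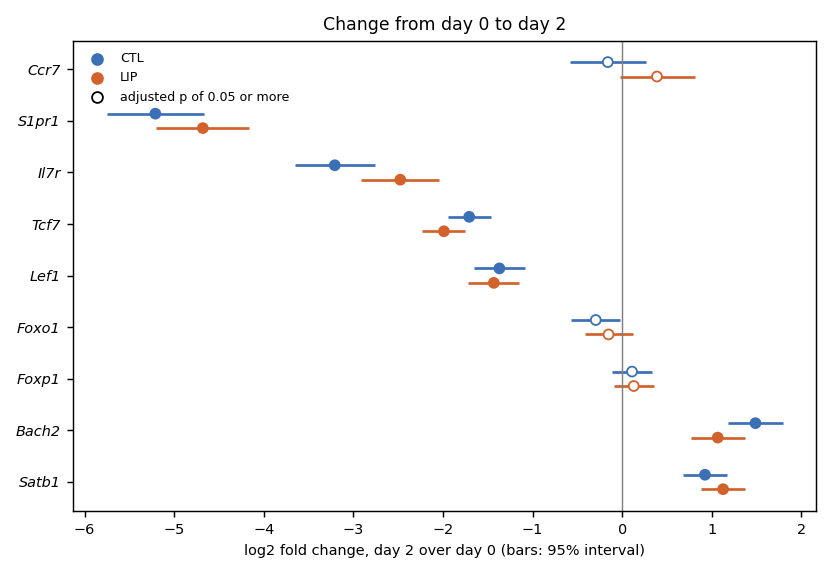
Log2 fold change from day 0 to day 2 (x axis) for each gene (y axis) in CTL (blue) and LIP (orange), with 95% intervals, and open points where the adjusted p was 0.05 or more. S1pr1 and Il7r lie farthest to the left (-5.21 and -3.21 in CTL), Bach2 and Satb1 to the right, and Ccr7, Foxo1 and Foxp1 near 0.

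Divided by the length of the canonical transcript, the order of the genes changed between the days. On day 0 in CTL, Il7r had the highest mean level (253 CPM per kilobase), followed by Foxp1 (230), Lef1 (215), Tcf7 (175), Satb1 (173), Ccr7 (169), S1pr1 (165), Foxo1 (41.9) and Bach2 (21.8). The ranges of neighbours overlapped down to S1pr1, whereas Foxo1 (34.3 to 46.6) and Bach2 (21.0 to 23.1) lay under all the others and apart from each other. The order in LIP on day 0 was the same except that Ccr7 (154) and Satb1 (153) changed places, with overlapping ranges. In that group, Il7r (227 to 244) lay apart from Foxp1 (186 to 208), and S1pr1 (125 to 145) apart from its neighbours on both sides. On day 2 in CTL, Satb1 led (329 CPM per kilobase), then Foxp1 (248), Ccr7 (151), Lef1 (83.3), Bach2 (61.3), Tcf7 (53.7), Foxo1 (34.1), Il7r (27.4) and S1pr1 (4.45). There, only the neighbours Bach2 and Tcf7 and the neighbours Foxo1 and Il7r had overlapping ranges. In LIP on day 2, Satb1 (334), Foxp1 (218), Ccr7 (202) and Lef1 (68.6) again came first, and S1pr1 (5.33) last. Between them, Tcf7 (44.2), Il7r (42.5), Bach2 (41.5) and Foxo1 (35.9) each overlapped with the next in order. The place of Foxp1 rests on its canonical transcript of 1848 bases. With its longest transcript, of 8175 bases, its mean level on day 0 in CTL was 51.9 CPM per kilobase, under Tcf7 (166).

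The other genes listed as markers of naive T cells were mostly lower on day 2, as S1pr1 and Il7r were. This list and those below were chosen with earlier results of these data known, so their counts are description only. Of 14, 12 were lower and 1 higher in CTL (median log2 fold change -1.04), beside 33.7% lower and 35.3% higher of all genes (median -0.022). In LIP, 9 were lower and 2 higher (median -1.24), beside 35.2% lower and 36.6% higher of all genes (median -0.003). Igfbp4 fell (log2 fold change -2.51 in CTL and -2.81 in LIP), as did the kinase gene Txk (-3.66 and -3.71) and Pik3ip1, an inhibitor of PI3K (-3.68 and -3.70). Sidt1 was at -2.42 in CTL and Il6ra, the interleukin-6 receptor, at -1.70 in LIP. Dapl1 rose in CTL (0.62, adjusted p = 0.0282), and Ly6c1 (3.41, adjusted p = 0.000108) and Treml2 (0.52, adjusted p = 0.0103) rose in LIP. These 3 were named after their values were seen.

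Among 22 regulators of quiescence, 15 were lower and 3 higher in CTL (median -0.77), where 33.7% of all genes were lower, and 15 were lower and 4 higher in LIP (median -0.71), where 35.2% of all genes were lower. Klf2, the factor that drives S1pr1 transcription, fell in both groups (log2 fold change -2.80 in CTL and -3.00 in LIP). Its relative Klf3 was at -2.52 in CTL and at -3.30 in LIP. Cdkn1b, which encodes the cell cycle inhibitor p27 (-1.67 in CTL), the RNA-binding protein gene Zfp36l2 (-1.5 in CTL) and Mxd4, an antagonist of MYC (-2.54 in LIP), fell too. Gfi1 went the other way (3.96 in CTL and 3.77 in LIP).

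Of 22 activation and effector genes, 16 were higher and 3 lower in CTL (median 2.65), where 35.3% of all genes were higher, and 17 were higher and 3 lower in LIP (median 2.08), where 36.6% of all genes were higher. The transcription factor gene Irf4 rose by 6.06 on the log2 scale in CTL and 6.19 in LIP, Il2ra, the alpha chain of the interleukin-2 receptor, by 4.30 and 4.05, and the costimulatory receptor genes Tnfrsf4 by 4.58 and 4.45 and Tnfrsf9 by 5.45 and 5.22. The 3 lower genes of both groups were Cxcr3, S100a4 and Maf, named after their values were seen. Cxcr3 encodes a chemokine receptor, S100a4 a calcium-binding protein and Maf a transcription factor of T helper subsets.

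**Figure D3:**
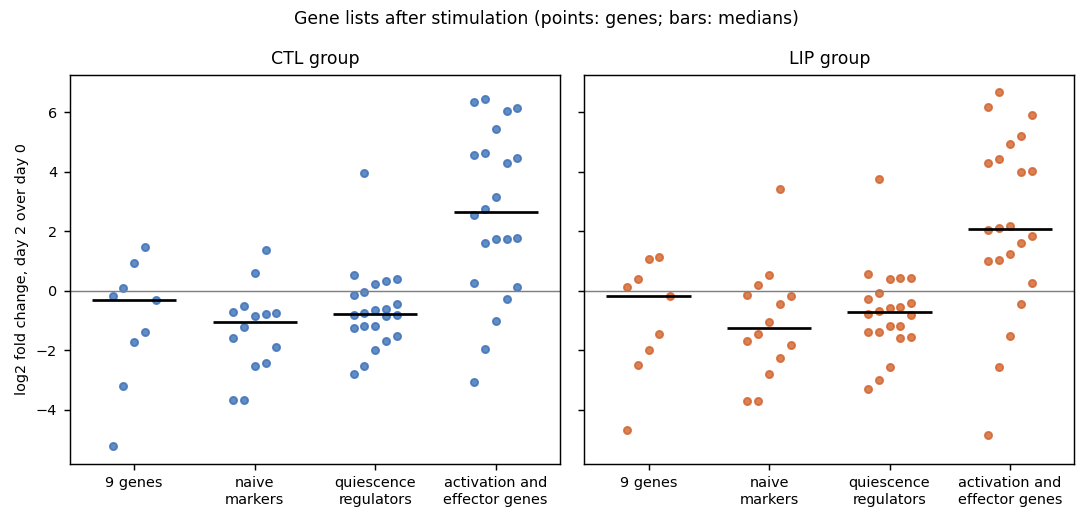
Log2 fold change from day 0 to day 2 (y axis) of the 9 genes and of the lists of 14 naive markers, 22 regulators of quiescence and 22 activation and effector genes (x axis), in CTL and LIP, with a bar at each median. The medians lie under 0 for the first 3 sets (-0.30, -1.04 and -0.77 in CTL) and above 0 for the last (2.65 in CTL).

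In freshly isolated cells, no call separated LIP from CTL in any of the 9 genes, although 8 of 9 had a log2 fold change under 0. The number called by edgeR was 0 of 9, where 0.427% of 14064 genes were called, and DESeq2 also called 0. At an unadjusted p under 0.05 there was 1, Foxp1, where 13.9% of all genes passed. The median log2 fold change of the 9 genes was -0.14, beside 0.009 over all genes. S1pr1 had the largest difference (log2 fold change -0.27, 95% interval -0.58 to 0.03, adjusted p = 0.409), followed by Lef1 (-0.21, -0.45 to 0.03, adjusted p = 0.419), Foxp1 (-0.20 ± 0.09 SE, adjusted p = 0.356) and Satb1 (-0.17, -0.37 to 0.02, adjusted p = 0.408). Satb1 was the one gene with every LIP library (1041 to 1096 CPM) under every CTL library (1122 to 1371 CPM), where 19.1% of all genes had groups that did not overlap. Bach2 (-0.14), Ccr7 (-0.13), Il7r (-0.09) and Foxo1 (-0.06) followed, and the estimate for Tcf7 was 0.005 (95% interval -0.17 to 0.18). With library totals alone, which moved the median of all genes from 0.009 to 0.077, Foxo1 was at 0.01, and with RLE scaling Tcf7 was at -0.002.

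These values depended on which CTL libraries were used. CTL 94 was under the mean of its group for 8 of the 9 genes and above it for Il7r alone, with a mean deviation over all 9 of -0.15 on the log2 scale. CTL 89 deviated as far the other way, above that mean for 8 of the 9 genes (mean deviation 0.15). Without CTL 94, S1pr1 (log2 fold change -0.45, adjusted p = 0.017) and Foxp1 (-0.29, adjusted p = 0.0392) were called lower in LIP, with 4.59% of all genes then called. Also without CTL 94, Lef1 was at -0.32, Ccr7 and Satb1 at -0.23, Foxo1 at -0.19, Bach2 at -0.17, Tcf7 at -0.05 and Il7r at 0.01, none of them called. Without CTL 89 instead, S1pr1 was at -0.10, Satb1 at -0.08, Lef1 at -0.06 and Ccr7 at -0.04. Bach2 was at -0.05 without LIP 94 and at -0.24 without LIP 92. S1pr1 was also called lower with no filter on low counts (adjusted p = 0.0417), where 2.52% of all genes were called. Markers of regulatory T cells (Foxp3, Ikzf2, Ctla4, Il2ra and Nrp1) were summed. They reached 483, 331 and 423 CPM in CTL 88, 89 and 94, and 490, 495 and 528 CPM in LIP 92, 93 and 94. The sum was higher in each LIP library, but the single genes differed. Ikzf2 (124 to 196 CPM in CTL, 229 to 250 in LIP) and Il2ra (77.4 to 91.1, 101 to 107) did not overlap, like 19.1% of all genes. Foxp3, Nrp1 and Ctla4 overlapped, and the mean of Ctla4 was lower in LIP (39.2 CPM) than in CTL (46.2 CPM). The part of these markers in the differences above was not tested.

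**Figure D4:**
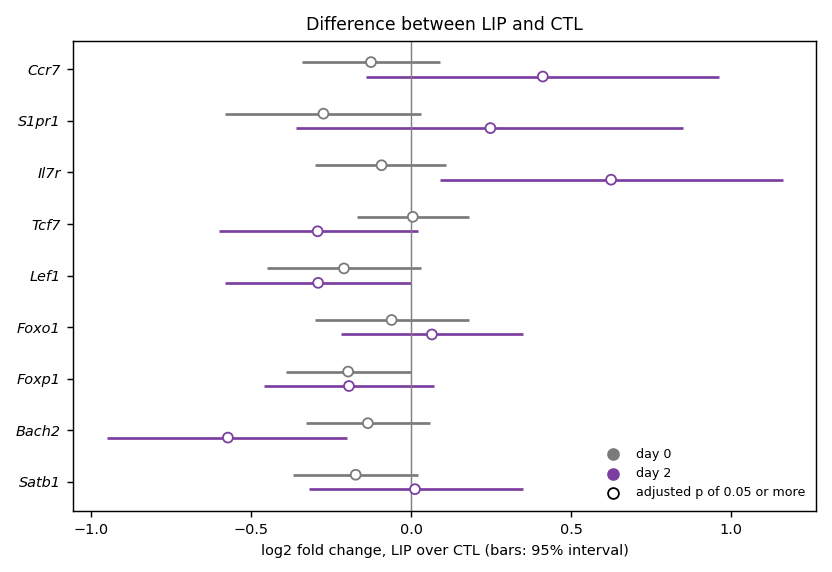
Log2 fold change of LIP over CTL (x axis) for each gene (y axis) on day 0 (grey) and day 2 (purple), with 95% intervals, and open points where the adjusted p was 0.05 or more. All points are open. On day 0 they lie between -0.27 (S1pr1) and 0.005 (Tcf7), and on day 2 between -0.57 (Bach2) and 0.62 (Il7r), with wider intervals.

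After stimulation, again 0 of the 9 genes were called by edgeR between LIP and CTL. The median size of the log2 fold change over all genes was 0.207 on day 2, against 0.139 on day 0. On day 2, 0 of 14041 genes (0%) were called by that test, against 2322 at an unadjusted p under 0.05 and 489 by DESeq2. Bach2 had the lowest log2 fold change of the 9, with 426.1, 286.2 and 405.7 CPM in LIP against 515.2, 570.4 and 563.9 CPM in CTL. Its groups did not overlap, which held for 21.4% of all genes. Its log2 fold change was -0.57 (95% interval -0.95 to -0.20, adjusted p = 0.17). DESeq2 called Bach2 lower (adjusted p = 0.0492, 3.48% of all genes called), as did the fit of all 12 libraries together (adjusted p = 0.035, 5.01% called). The fit without LIP 90 also called it lower (-0.65, adjusted p = 0.024), with 13.9% of all genes called. Without LIP 96, the lowest library, it was at -0.40 (adjusted p = 0.542). The part of the B cell markers, which summed to 59.3 CPM or more in CTL 97, LIP 96 and LIP 97 and to 7.15 CPM or less in the other 3 libraries, was not tested for this gene or for Il7r.

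Il7r was on the opposite side, at 113.3, 181.2 and 156.9 CPM in LIP and 130, 79.99 and 80.73 CPM in CTL, where CTL 92 overlapped with LIP 90. Its log2 fold change was 0.62 (95% interval 0.09 to 1.16, adjusted p = 0.249). Il7r and Bach2 were the 2 genes of the 9 with an unadjusted p under 0.05, where 16.5% of all genes passed. Without LIP 90, Il7r was called higher (0.82, adjusted p = 0.0263).

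The remaining genes had adjusted p-values of 0.305 or more on day 2. Foxp1 was lower in every LIP library (372.0 to 421.2 CPM) than in every CTL library (439.5 to 482.3 CPM), with a log2 fold change of -0.19 (95% interval -0.46 to 0.07), and 21.4% of all genes had groups that did not overlap. Tcf7 (-0.29, -0.60 to 0.02) and Lef1 (-0.29, -0.58 to 0.00) had like estimates and overlapping groups. For Ccr7 the log2 fold change was 0.41 (-0.14 to 0.96), and it was 0.06 without LIP 97 and 0.62 without LIP 90. S1pr1 was at 0.25 (-0.36 to 0.85), at 0.06 without LIP 97 and at 0.51 without LIP 90. Its highest day 2 levels were in CTL 97 (16.33 CPM), LIP 96 (17.67) and LIP 97 (20.44), the libraries with the highest B cell markers. The part of those markers was not tested for S1pr1 either. Foxo1 was at 0.06 (-0.22 to 0.35) and Satb1 at 0.01 (-0.32 to 0.35), and the last pair turned to -0.02 and -0.08 with library totals alone, a scaling that moved the median of all genes from -0.006 to -0.093. Without LIP 90, Foxo1 was at 0.16, Satb1 at 0.12 and Foxp1 at -0.11, none of them called.

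**Figure D5:**
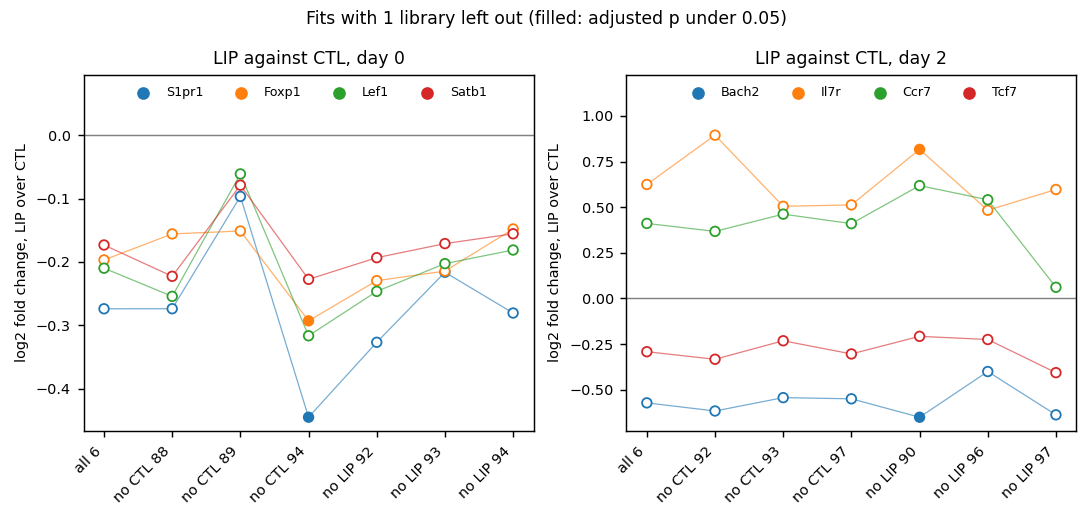
Log2 fold change of LIP over CTL (y axis) for 4 genes on day 0 (left) and 4 on day 2 (right), with all 6 libraries and with each library left out in turn (x axis), and filled points where the adjusted p was under 0.05. S1pr1 and Foxp1 are filled without CTL 94 (-0.45 and -0.29), and Bach2 and Il7r without LIP 90 (-0.65 and 0.82).

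Whether the difference between LIP and CTL itself changed from day 0 to day 2 was tested as an interaction over all 12 libraries. edgeR called 0 of the 9 genes, where 0.0517% of 15475 genes were called, and DESeq2 called 0. At an unadjusted p under 0.05 there were 2 (15.9% of all genes): Il7r, whose difference rose by 0.73 (95% interval 0.15 to 1.31, adjusted p = 0.203), and Bach2, whose difference fell by 0.42 (adjusted p = 0.313) and was at -0.26 without LIP 96. Il7r was called without LIP 90 (0.90, adjusted p = 0.0249, 10.1% of all genes called). It was also called with no filter on low counts (0.73, adjusted p = 0.0103, 2.89% of all genes called). Ccr7 (0.55, -0.05 to 1.14) and S1pr1 (0.53, -0.15 to 1.21) had positive estimates, which were 0.20 and 0.35 without LIP 97 and 0.73 and 0.77 without LIP 90, and Tcf7 (-0.28, -0.61 to 0.05) a negative one.

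The lists gave few calls between LIP and CTL. On day 0, 0 of 14 naive markers and 0 of 22 regulators of quiescence were called by edgeR (3 and 6 at an unadjusted p under 0.05, where 13.9% of all genes passed and 0.427% were called), with medians of -0.05 and -0.07 beside 0.009 over all genes. The naive markers nearest to the threshold were Treml2 (-0.34, adjusted p = 0.156), Actn1 (-0.35), Itga6 (-0.18) and Bcl2 (0.20), and the regulators were Peli1 (-0.25), Tob2 (-0.25), Btg1 (-0.32) and Zfp36l2 (-0.26). Without CTL 89, Treml2 was at -0.22, Actn1 at -0.22 and Bcl2 at 0.11. Actn1 was at -0.49 and Bcl2 at 0.29 without CTL 94. Of 21 activation and effector genes tested, 17 had a positive and 4 a negative log2 fold change, with a median of 0.21. The 1 called was among the negative ones: Cd69, an early activation marker that also holds cells in tissue by opposing S1PR1. It was at 386, 296 and 215 CPM in CTL and at 176, 151 and 152 CPM in LIP (log2 fold change -0.90, adjusted p = 0.0375). Each LIP library was under each CTL library, where 19.1% of all genes had groups that did not overlap. The call was lost without CTL 88 (adjusted p = 0.112), without LIP 92 (0.103), without LIP 93 (0.316) and without LIP 94 (0.289). It was also lost with library totals alone (adjusted p = 0.0598) and in the fit of all 12 libraries (adjusted p = 0.198). It was kept without CTL 89 and without CTL 94, in the latter case at -1.09 (adjusted p = 5.95e-05). Il2ra (0.34) and Gzmb (1.3) did not pass the threshold. The level of Gzmb was low, at 0.36 to 1.71 CPM in CTL and 1.37 to 2.81 CPM in LIP, with 3 counts in CTL 89. Its log2 fold change was 2.19 (adjusted p = 0.0442) without CTL 94 and 0.88 without CTL 89. Without CTL 94, where 4.59% of all genes were called, Treml2, Actn1, Peli1, Tob2 and Btg1 were called as well, with adjusted p-values of 0.00868 (Actn1) to 0.0408 (Tob2). With no filter on low counts (2.52% of all genes called), Treml2, Actn1, Btg1 and Il2ra were called too. By DESeq2 (1.46% of all genes called), Btg1, Cd69 and Il2ra were called.

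On day 2, 0 genes of these lists were called by edgeR (7 of 14 naive markers, 7 of 22 regulators of quiescence and 4 of 21 activation and effector genes at an unadjusted p under 0.05), where 16.5% of all genes passed at the unadjusted p and 0% were called. The naive markers went both ways: 6 had a positive and 8 a negative log2 fold change of LIP over CTL, with a median of -0.05, and of those with an unadjusted p under 0.05, 4 were higher and 3 lower. Of the regulators of quiescence, 6 had a positive and 16 a negative estimate (median -0.16, beside -0.006 over all genes). At an unadjusted p under 0.05, 1 of these regulators was higher and 6 were lower. Treml2 was at 122, 174 and 196 CPM in LIP 90, 96 and 97 and at 90.3, 74.1 and 98.1 CPM in CTL (0.90, adjusted p = 0.124). The groups did not overlap for this gene, which held for 21.4% of all genes. Ly6c1 (2.71) and Bcl2 (0.77) also had positive estimates, whereas those of Klf3 (-0.68), Tob1 (-0.59), Foxo3 (-0.47) and Btg2 (-0.38) were negative. Of the effector genes, Gzmb was at 156, 130 and 114 CPM in LIP and 75.3, 53.8 and 64.1 CPM in CTL (1.04, adjusted p = 0.0997), and Il2 (-1.47), Cd44 (-0.48) and Ifng (-1.10) had negative estimates. These genes were named for their small p-values in this comparison. Without LIP 90, where 13.9% of all genes were called, each of them was called except Btg2, and by DESeq2 with all libraries 5 were (Ly6c1, Treml2, Bcl2, Klf3 and Gzmb). In the interaction, 0 genes of the lists were called by edgeR, and low adjusted p-values were those of Treml2 (1.25, adjusted p = 0.074), Klf3 (-0.78, 0.0871) and Cd69 (0.88, 0.138). These 3 were called by DESeq2 and, without LIP 90, by edgeR, where 10.1% of all genes were called.

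Across the 12 libraries, the mean profile of the 9 genes (log2 CPM plus 0.5, centred on each gene's mean) was an average of unlike patterns. Single genes departed from it by a root mean square of 0.27 (Lef1) to 1.98 (S1pr1). The 5 other genes nearest to this mean were Ash1l (0.062), Fam160b1 (0.075), Prdm2 (0.081), Itpkb (0.083) and Iqce (0.085), each measured over 12 libraries that share the step from day 0 to day 2.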

How the data were processed

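RNA of splenic CD4+ T cells was analysed in 12 libraries, 3 of each group and day, assigned by their sample titles. The authors trimmed reads with Trimmomatic (version 0.38 in the labels, another version in the paper's methods), used HISAT2 with GRCm39 for alignment, and estimated counts with RSEM 1.3.0 and Bowtie2. These expected counts were deposited per gene and are not normalized. A table for each day gives, in addition, the authors' normalized signal per library in CPM, together with columns of their own comparison (log2 fold change, mean log2 CPM, p-value and false discovery rate), which were not used here. Of the signal columns for day 2, 2 match no labelled sample and were not used. The signal of day 0 served as one alternative.

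Expected counts were rounded and tested in R 4.3.3 with edgeR 4.0.16 (filterByExpr, TMM, quasi-likelihood test, Benjamini-Hochberg adjustment over all genes tested). LIP was compared with CTL on the 6 libraries of each day, and day 2 with day 0, as well as the interaction, on all 12. All 95% intervals use the t distribution with the degrees of freedom of the fit. DESeq2 1.42.0, other scalings, other filters, other sets of libraries and summed overlapping records were alternatives. The tests were tried on simulated counts. Positions, transcripts and starts came from GENCODE release M39 on GRCm39, read with Python 3.11.15 and pandas 2.3.3, and figures were drawn with matplotlib 3.10.9.

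All 9 genes are named. From the lists of naive markers, regulators of quiescence and activation and effector genes, the 4 genes with the smallest unadjusted p in each comparison are named, with exceptions stated. Some genes that this rule selects are not reported here. The 9 genes and the lists were chosen with earlier results of these data known. Motifs were searched on both strands, with no allowance for mismatches.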

Additional observations from a re-analysis of the deposited data

How the results depend on the processing

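The library numbers pair no 2 groups compared directly, which share at most 1. In the fit of all 12 libraries, 4 number matches could be used, and a fit with the number as a replicate block, added after the data were seen, left 1 residual degree of freedom. Deviations of same-numbered libraries from their group means correlated over genes at -0.05 to 0.10, against -0.14 to 0.11 for the 50 other pairs. These 4 matches are too few to tell whether such libraries share more than a number. Under this block, 6847 genes (44.2%) were called from day 0 to day 2 in CTL, 6884 (44.5%) in LIP and 550 (3.55%) in the interaction. In the interaction, 2 of the 9 were called higher (Ccr7 and Il7r). Ccr7 was at 0.0508 in CTL and was called higher in LIP (0.9166), Foxo1 was at 0.0363 in LIP, and in the interaction Mxd4 was at 0.0324 and S100a4 at 0.5164. The 6 calls from day 0 to day 2 in each group kept their direction and call in every alternative. The number of all genes called between LIP and CTL also depended on the setting. On day 0 it was 645 with no filter on low counts, 206 by DESeq2, 12 in one fit of all 12 libraries, and 13 to 658 with single libraries left out. On day 2 it was 1 with library totals and 1 with at least 10 counts in every library, 662 with no filter, 489 by DESeq2, 775 in the fit of all 12 libraries, and 0 to 2014 with single libraries left out. In the interaction it was 97 with library totals, 815 with no filter, 531 by DESeq2, and 1 to 1596 with single libraries left out. Of the 9 genes, 1 was called lower on day 0 with no filter (2.52% of all genes called). With a library left out, 0 to 2 were called lower, the 2 without CTL 94 (4.59% of all genes called). On day 2, 1 was called lower by DESeq2 (3.48% of all genes called) and 1 in the fit of all 12 libraries (5.01%). With a library left out on day 2, 0 to 1 were called lower and 0 to 1 higher, both without LIP 90 (13.9% of all genes called). In the interaction, 1 was called higher with no filter (2.89% of all genes called) and 0 to 1 with a library left out (10.1% without LIP 90). Estimates near 0 changed sign. On day 0, Tcf7 was at -0.0022 (RLE), -0.0023 (DESeq2) and -0.0011 (all 12 libraries), and Foxo1 at 0.0082 (library totals). On day 2, Foxo1 was at -0.0241 and Satb1 at -0.0761 (library totals), and Satb1 at -0.0379 with overlapping records summed. From day 0 to day 2, Foxp1 was at -0.176 (upper quartile) and -0.0772 (library totals) in CTL and at -0.1886 and -0.2314 in LIP. In the interaction, Foxp1 was at -0.0126 (upper quartile), -0.1542 (library totals), -0.0103 (at least 10 counts) and -0.0793 (records summed), and Foxo1 at -0.0322 (library totals). With single libraries left out, the ranges that crossed 0 were -0.1573 to 0.0127 (Il7r), -0.0507 to 0.0647 (Tcf7) and -0.1895 to 0.0194 (Foxo1) on day 0, -0.0781 to 0.1246 (Satb1) on day 2, and -0.0333 to 0.094 (Foxp1) and -0.212 to 0.0213 (Lef1) in the interaction. With library totals, the median of all genes in the interaction moved from -0.001 to -0.173. The causes were not tested. The ratio of the authors' normalized signal on day 0, added after the data were seen, kept the sign of all 9. With 3 libraries a group, an exact two-sided permutation test of one gene cannot go below 0.1.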

Other observations

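Genes of regulatory T cells, listed as markers of another CD4+ subset, moved both ways with the culture. Of the 5, 2 were higher and 3 lower on day 2 in CTL, and likewise in LIP. The list had its median log2 fold change at -0.52 in CTL and at -1.11 in LIP, beside -0.022 and -0.003 over all genes. In CTL 33.7% of all genes were lower and 35.3% higher, and in LIP 35.2% were lower and 36.6% higher. Il2ra, the alpha chain of the interleukin-2 receptor, went from 77.4 to 91.1 CPM on day 0 to 1300 to 1850 CPM on day 2 in CTL, and from 101 to 107 CPM to 1580 to 1830 CPM in LIP. The inhibitory receptor gene Ctla4 went from 34.4 to 67 CPM to 109 to 206 CPM in CTL, and from 34.7 to 43.3 CPM to 130 to 189 CPM in LIP. Both of these genes are also induced in other activated T cells.

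Foxp3, the defining factor of that subset, was at 47.3 to 65.4 CPM in CTL and 57.8 to 72.7 CPM in LIP on day 0, and at 35.9 to 42.2 CPM in CTL and 27.9 to 31.8 CPM in LIP on day 2. Ikzf2, which encodes Helios, was at 124 to 196 CPM in CTL and 229 to 250 CPM in LIP on day 0, and at 106 to 126 CPM in CTL and 77.3 to 93.5 CPM in LIP on day 2. Nrp1, which encodes neuropilin-1, was at 35.2 to 69.7 CPM in CTL and 55 to 63.7 CPM in LIP on day 0, and at 18.1 to 27.5 CPM in CTL and 7.29 to 14.1 CPM in LIP on day 2. On day 2 these 3 genes were lower in each LIP library than in each CTL library, where 21.4% of all genes had groups that did not overlap, whereas Il2ra (log2 fold change 0.07) and Ctla4 (-0.03) were near 0. Of the 5 genes, 0 were called between LIP and CTL by edgeR on either day. At an unadjusted p under 0.05 there were 2 on day 0, where 13.9% of all genes passed, and 3 on day 2, where 16.5% passed. DESeq2 called 1 of the 5 on day 0 (Il2ra, adjusted p = 0.0495) and 1 on day 2 (Nrp1, adjusted p = 0.0124).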
